A study of Mus musculus with 20 samples.

Results

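Lymph nodes that drain the duodenum were compared with lymph nodes that drain the cecum and colon, in mice without mature T and B cells. The comparison took every library that the labels give for these positions, 4 duodenal and 4 ceco-colonic, 8 of the 20 libraries of the series. Posterior Hox genes, Ccl8, Mmp3, Tnfsf4, Il22, genes of migratory dendritic cells and eosinophil genes were lower in duodenal nodes. Higher in duodenal nodes were nerve genes, most called Wnt and BMP genes, Aldh1a1 and other retinoid genes, the aryl hydrocarbon receptor targets Cyp1b1, Cyp1a1, Aldh3a1 and Nqo1, and the group 2 innate lymphoid genes Il17rb and Il1rl1. Of 16 group 2 genes, 7 differed in this direction and 2, Ptgdr2 among them, were lower. Of 29 retinoid genes, 10 were higher and 1, Rara, was lower, and Aldh1a2 did not pass the test. Pancreatic digestive enzyme transcripts filled duodenal libraries 1 and 2 but not 3 and 4, so calls were also read in libraries 3 and 4 alone.

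Both groups were whole lymph nodes of Rag1-/- mice (B6.129S7-Rag1tm1Mom/J) aged 9 weeks, with no other treatment given in the labels. Such mice cannot rearrange antigen receptor genes, so their nodes hold stroma, myeloid cells and innate lymphocytes without the usual T and B cells. PolyA RNA of the whole organ was sequenced, and the other 12 libraries came from jejunal, ileal and inguinal nodes of the same strain. Total estimated counts were 189.4 to 227.9 M (mega counts) in duodenal and 171.1 to 273.3 M in ceco-colonic libraries. Before normalization between libraries, 1 CPM (1 count per M) thus stood for at least 171 counts. Whether each library stands for its own animal is not stated in the labels. The p-values therefore cover the spread among libraries and no more. Rag1 itself was at 2.32, 2.85, 2.15 and 2.91 CPM in duodenal nodes, against 2.81, 3.05, 2.19 and 2.74 CPM in ceco-colonic nodes, and no library of a mouse with intact Rag1 was analysed here, so the genotype label was not checked by it.

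Each segment of the intestine sends its lymph to its own node along the mesentery. Lymph carries dietary lipid, vitamin A and migrating dendritic cells from the proximal gut, and microbial products and cells from the large intestine. Inside the node, reticular cells lay out the tissue and make chemokines, lymphatic endothelium lines the sinuses, and high endothelial venules admit blood cells. Hox genes are transcription factor genes whose expression marks position along the body axis, with low numbered paralogs anterior and high numbered paralogs posterior.

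Duodenal libraries 1 and 2 stood apart by pancreatic acinar transcripts, which encode the digestive enzymes of the exocrine pancreas. The summed level of 35 acinar genes was 73150, 41150, 32.4 and 50 CPM in duodenal libraries 1 to 4, against 21.4, 25.5, 21.1 and 21.1 CPM in ceco-colonic libraries. Libraries 1 and 2 were thus far above every other library, and libraries 3 and 4 were slightly above all ceco-colonic libraries. Duodenal libraries 2 and 3 stood apart in another way. The 12 smooth muscle genes summed to 563, 1753, 1762 and 769 CPM in duodenal libraries 1 to 4, against 792, 739, 775 and 764 CPM in ceco-colonic libraries, so that libraries 2 and 3 were above all ceco-colonic libraries and libraries 1 and 4 were not. The 15 glial and neuronal genes summed to 26.4, 77.7, 80.1 and 43.8 CPM in duodenal libraries 1 to 4, against 16.2, 15, 15.6 and 16.3 CPM in ceco-colonic libraries. Here all duodenal libraries were higher, again with libraries 2 and 3 highest. Mesothelial genes, which mark the lining of the peritoneal cavity, summed to 20.8 to 40 CPM in duodenal and 12.2 to 15 CPM in ceco-colonic libraries over 12 genes. Adipocyte sums overlapped, at 396 to 879.7 CPM in duodenal and 496 to 862 CPM in ceco-colonic libraries, and Adipoq, the fat cell hormone adiponectin, did not pass the test (adjusted p = 0.954).

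**Figure D1:**
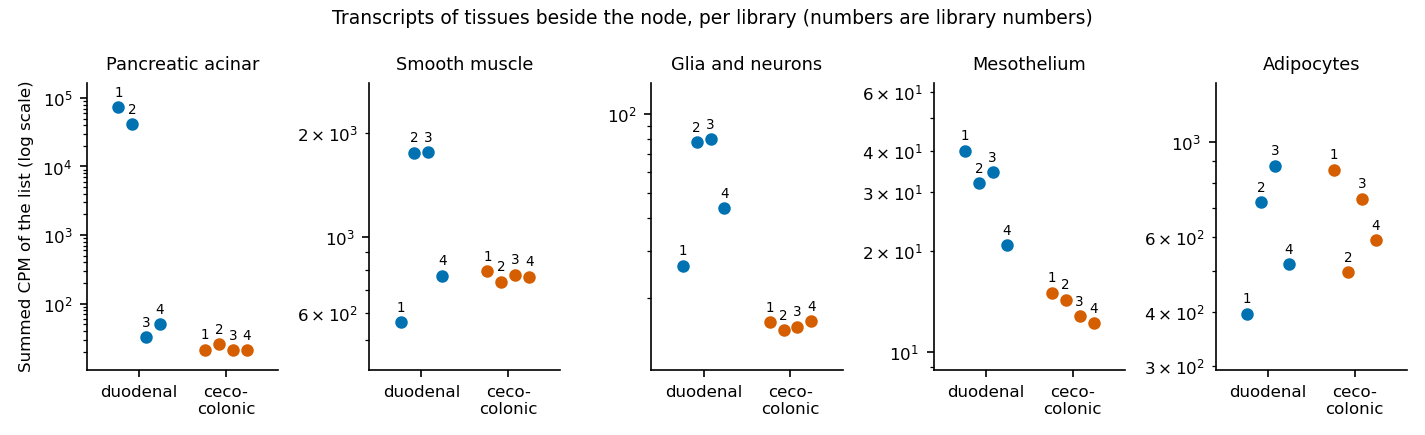
Summed level of 5 marker gene lists of tissues beside the node, in CPM on a log axis with its own range in each panel. Each point is 1 library and carries its library number, with duodenal nodes on the left and ceco-colonic nodes on the right of each panel. Duodenal libraries 1 and 2 sit far above the rest for acinar genes, libraries 2 and 3 for smooth muscle genes, and adipocyte sums overlap.

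Of 29411 genes tested, 4825 (16.4%) differed between duodenal and ceco-colonic nodes in the quasi-likelihood test of edgeR, at a Benjamini-Hochberg adjusted p under 0.05. Of these, 2422 genes (8.24% of all tested) were higher and 2403 (8.17%) were lower in duodenal nodes. At least 2-fold differences were found in 1314 genes (4.47%), 908 of them higher (3.09%) and 406 lower (1.38%). A called gene was said to hold when a fit without duodenal libraries 1 and 2 called it in the same direction, and when libraries 3 and 4 both lay beyond all 4 ceco-colonic libraries. By this rule 2679 genes (9.11%) held, 1507 higher (5.12%) and 1172 lower (3.98%). These were 62.2% of the genes called higher and 48.8% of those called lower, and 633 higher and 282 lower genes held with at least a 2-fold difference. Of the 4825 called genes, 27 had the opposite sign in libraries 3 and 4. The 4 duodenal and the 4 ceco-colonic libraries did not overlap in 5090 genes (17.3%), which were 8.25% of genes higher and 9.05% lower in duodenal nodes. The fit without duodenal libraries 1 and 2 called 3032 genes (10.3%), 5.97% of genes higher and 4.34% lower.

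The smaller fit had less power than the full fit. In simulated data with 100 changed genes of each size, the full comparison recovered 59% of 2-fold changes and 37% of 1.5-fold changes, and the comparison of libraries 3 and 4 recovered 50% and 21%. A gene that did not hold was thus not shown to lack a difference. Because libraries 2 and 3 carried the most smooth muscle and nerve transcripts, the same rule was also applied to libraries 1 and 4, an alternative chosen after seeing the data. Of the 2679 genes that held, 1775 (6.04% of all tested) held there too, 908 higher (3.09%) and 867 lower (2.95%). Below, "held in both pairs" refers to libraries 3 and 4 and libraries 1 and 4. Both pairs contain library 4, and libraries 1 and 4 were not free of nerve transcripts. Their glial and neuronal sums were 26.4 and 43.8 CPM, against at most 16.3 CPM in ceco-colonic libraries. Library 4 also had 4.41 CPM of the smooth muscle gene Cnn1, against at most 1.21 CPM there. Holding in both pairs thus does not set nerve or smooth muscle transcripts aside. Of the 123 called genes named here, 117 held, and Cpa1, Prss2, Ctrb1, Try4, Amy2a3 and Cxcl13 did not. Of those 117 genes, 109 held in both pairs, all but Madcam1, Cnn1, Lmod1, Wt1, Pdgfra, Igf1, Cd5l and Ahr. Values are TMM-scaled CPM with library 1 first, means carry their SD over 4 libraries a group, and log2 fold changes carry the model's SE. The median log2 fold change of all genes was 0.03. Counts of list members below are to be read beside the shares of all genes. These were 8.24% called higher and 8.17% called lower, with 5.12% and 3.98% held, and 3.09% and 2.95% held in both pairs. A count near these shares is no result about its list.

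**Figure D2:**
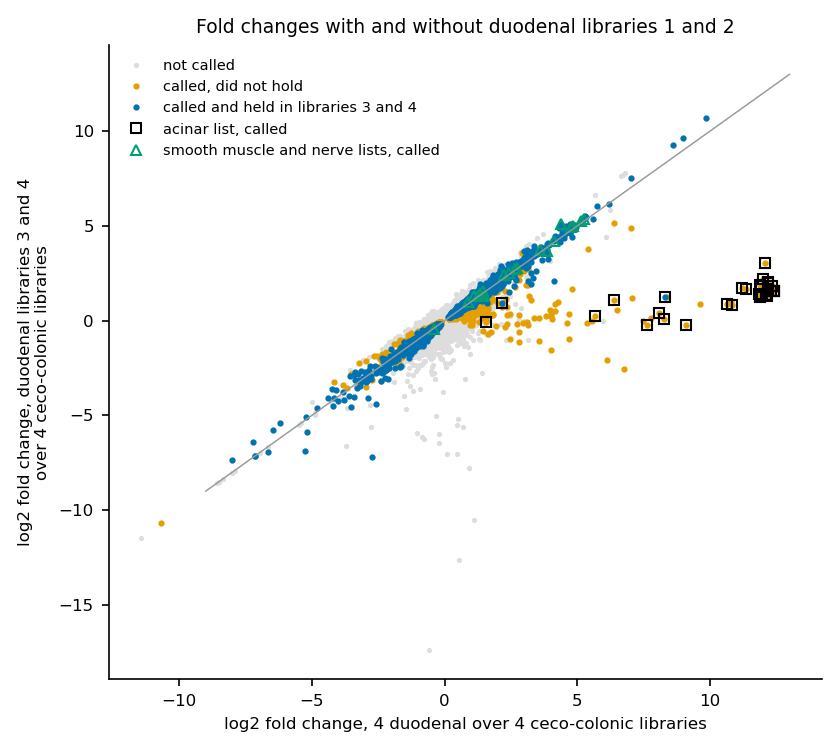
Log2 fold change of duodenal over ceco-colonic nodes for each of 29411 genes, from all 4 duodenal libraries (horizontal axis) and from duodenal libraries 3 and 4 alone (vertical axis). Grey points were not called, orange points were called but did not hold and blue points held. Called acinar genes (squares) lie between 1.58 and 12.42 on the horizontal axis and between -0.25 and 3.06 on the vertical axis, and called smooth muscle and nerve genes (triangles) lie near the diagonal.

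Acinar genes rose with all 4 duodenal libraries in the fit and mostly did not hold. All 30 acinar genes that could be tested were called higher in duodenal nodes (8.24% of all genes were), with a median log2 fold change of 11.89. Limma-voom called 1 of them, Ctrc, and did not call the others named here, Cpa1, Prss2, Ctrb1, Try4, Amy2a3 and Zg16 (adjusted p from 0.132 for Zg16 to 0.337 for Cpa1). By edgeR 2 of the 30 held, and the median in libraries 3 and 4 was 1.39. Cpa1, carboxypeptidase A1, was at 1981, 1146, 0.415 and 0.964 CPM in duodenal libraries, against 0.117, 0.214, 0.128 and 0.221 CPM in ceco-colonic libraries. Libraries 3 and 4 were above the ceco-colonic libraries by far less than libraries 1 and 2, and the adjusted p without libraries 1 and 2 was 0.27. Prss2 and Try4, both trypsinogens, Ctrb1, chymotrypsinogen, and Amy2a3, pancreatic amylase, followed the same pattern with log2 fold changes of 10.63, 12.30, 12.32 and 12.42. Reads of Try4 and of Amy2a3 cannot be told apart with certainty from those of near-identical genes. The acinar genes that held by edgeR were Zg16, a zymogen granule protein, and Ctrc, chymotrypsin C. Zg16 was at 487, 284, 1.49 and 1.36 CPM in duodenal nodes, against 0.778, 0.671, 0.576 and 0.415 CPM in ceco-colonic nodes. Ctrc was at 30.9, 14.4, 5.44 and 6.76 CPM in duodenal nodes, against 3.32, 3.17, 3.19 and 3.22 CPM in ceco-colonic nodes. Both were above every ceco-colonic library in each duodenal library (log2 fold change 8.32 ± 1.35, adjusted p = 0.000228 for Zg16, log2 fold change 2.16 ± 0.36, adjusted p = 0.000269 for Ctrc), with log2 fold changes of 1.23 and 0.92 in libraries 3 and 4. Zg16 averaged 1.425 CPM in duodenal libraries 3 and 4. Its means were 1.79 ± 0.531 CPM in jejunal, 1.61 ± 0.111 CPM in ileal and 1.86 ± 0.271 CPM in inguinal nodes. Ctrc averaged 6.1 CPM in libraries 3 and 4. Its means were 6.39 ± 1.26 CPM in jejunal, 5.73 ± 0.721 CPM in ileal and 0.795 ± 0.0761 CPM in inguinal nodes. For both genes libraries 3 and 4 were thus near the jejunal and ileal means, and a part of acinar tissue in their holding was not tested.

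Nerve and Schwann cell genes were higher in duodenal nodes in all 4 libraries. Of 14 glial and neuronal genes tested, 11 were called higher and none lower, 10 held and 8 held in both pairs, with a median log2 fold change of 1.87. Sox10, the transcription factor of Schwann cells and enteric glia, was at 1.42, 10, 9.99 and 4.77 CPM in duodenal libraries, against 0.267, 0.0772, 0.401 and 0.198 CPM in ceco-colonic libraries. The groups did not overlap, although library 1 was well below libraries 2 and 3 (log2 fold change 4.76 ± 0.77, adjusted p = 0.000229). Cdh19, a cadherin of Schwann cells, was at 3.51, 18.3, 19.4 and 8.81 CPM in duodenal nodes, against 0.597, 0.125, 0.379 and 0.272 CPM in ceco-colonic nodes (log2 fold change 5.18 ± 0.70, adjusted p = 3.08e-05). The calcium-binding protein gene S100b rose as well, with a log2 fold change of 3.59.

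Smooth muscle genes depended on which duodenal libraries were read. Of 12 tested, 8 were called higher and 1 lower and all 9 held in libraries 3 and 4, but 1 higher and 1 lower gene held in both pairs. Cnn1, calponin of contractile smooth muscle, was at 0.443, 35.8, 37.3 and 4.41 CPM in duodenal nodes, against 1.21, 0.196, 0.434 and 0.21 CPM in ceco-colonic nodes. Library 1 lay within the range of the ceco-colonic libraries (log2 fold change 5.26 ± 0.91, adjusted p = 0.000435). Lmod1, leiomodin of smooth muscle, showed the same pattern, at 3.03, 35.3, 33.6 and 7.93 CPM in duodenal nodes, against 4.06, 2.44, 3.19 and 2.51 CPM in ceco-colonic nodes (log2 fold change 2.71 ± 0.48, adjusted p = 0.000526). Itga8, an integrin of contractile mesenchyme, was at 4.91, 47.2, 55.6 and 7.36 CPM in duodenal nodes, against 3.04, 2.64, 2.89 and 1.89 CPM in ceco-colonic nodes, so that every duodenal library was above the ceco-colonic range and libraries 2 and 3 were far above it (log2 fold change 3.46 ± 0.54, adjusted p = 0.000146). Mylk4, a myosin light chain kinase gene, was likewise at 0.753, 14.3, 17 and 0.654 CPM in duodenal nodes, against 0.395, 0.463, 0.467 and 0.477 CPM in ceco-colonic nodes (log2 fold change 4.18 ± 0.72, adjusted p = 0.000427). Synpo2, an actin-binding protein of muscle, moved the other way, with 139 ± 14.7 CPM in duodenal and 184 ± 5 CPM in ceco-colonic nodes and no overlap (log2 fold change -0.41 ± 0.06, adjusted p = 0.000173). Among 12 mesothelial genes, 5 were called higher, 3 held and 1 held in both pairs. Gpm6a, a membrane glycoprotein of nerve and mesothelium, was the gene that held in both, at 15.8 ± 4.07 CPM in duodenal and 7.42 ± 1.46 CPM in ceco-colonic nodes (log2 fold change 1.09 ± 0.17, adjusted p = 0.000138). Wt1, the mesothelial transcription factor, was at 0.748, 1.25, 1.78 and 1.06 CPM in duodenal nodes, against 0.794, 0.701, 0.674 and 0.625 CPM in ceco-colonic nodes. Its groups overlapped in library 1, and its call (adjusted p = 0.0215) was lost without duodenal library 3 (adjusted p = 0.0976) or without ceco-colonic library 3 or 4 (adjusted p = 0.0534 and 0.0636).

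The posterior Hox genes fell together. All 9 genes of paralog groups 9 to 13 that could be tested were called lower in duodenal nodes (8.17% of all genes were), all 9 held and all 9 held in both pairs. Their median log2 fold change was -3.83, and 7 further members were below the filter on low counts. Their summed level was 13.4, 11.5, 16.1 and 10.9 CPM in duodenal libraries 1 to 4, against 45.7, 47.6, 43 and 43.1 CPM in ceco-colonic libraries, so that the highest duodenal library was well below the lowest ceco-colonic library. Hoxc10 had 3, 0, 17 and 1 estimated counts in duodenal libraries, against 1256, 1246, 1762 and 1649 in ceco-colonic libraries (log2 fold change -8.02 ± 0.52, adjusted p = 3.42e-09). It was close to not detected in duodenal nodes, since 1 of the 4 libraries had no count. Hoxa9 was at 0.293, 0.457, 0.394 and 0.416 CPM in duodenal nodes, against 5.58, 6.03, 4.92 and 5.72 CPM in ceco-colonic nodes (log2 fold change -3.83 ± 0.17, adjusted p = 1.22e-11). Hoxa10 was at 0.0805, 0.0961, 0.14 and 0.071 CPM in duodenal nodes, against 3.63, 4.47, 3.3 and 3.33 CPM in ceco-colonic nodes (log2 fold change -5.22 ± 0.21, adjusted p = 7.08e-12). Hoxc9 was at 0.535, 0.716, 0.754 and 0.654 CPM in duodenal nodes, against 5.44, 5.09, 4.95 and 5.23 CPM in ceco-colonic nodes (log2 fold change -2.96 ± 0.13, adjusted p = 1.22e-11). For these 3 genes the 4 libraries of a group lay close together and the groups were far apart. The libraries with acinar or smooth muscle transcripts and library 4 alike had sums between 10.9 and 16.1 CPM. Whole organs were sequenced, so fewer cells of a type and less RNA per cell cannot be told apart for these or any genes below.

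Anterior and central Hox genes did not share one direction. Of 14 genes of paralogs 1 to 5, 6 were called higher and 2 lower, and 5 and 1 held, with a median log2 fold change of 0.32. Hoxa4 was at 1.73, 2.22, 2.06 and 1.67 CPM in duodenal nodes, against 0.757, 0.683, 0.744 and 0.823 CPM in ceco-colonic nodes, a difference in every library (log2 fold change 1.35 ± 0.14, adjusted p = 1.94e-06). Hoxc4 and Hoxb5 were higher by log2 fold changes of 0.72 ± 0.09 and 0.51 ± 0.10. Hoxd3 went the other way, at 0.339, 0.562, 0.716 and 0.36 CPM in duodenal nodes, against 0.96, 1.62, 1.6 and 2.09 CPM in ceco-colonic nodes (log2 fold change -1.66 ± 0.33, adjusted p = 0.00145). Of 8 genes of paralogs 6 to 8, 1 was called higher and 2 lower (8.24% and 8.17% of all genes were). Hoxb7 had 8.47 ± 1.64 CPM in duodenal and 5.9 ± 0.614 CPM in ceco-colonic nodes (log2 fold change 0.52 ± 0.11, adjusted p = 0.00305). Hoxd8 had 11 ± 1.51 CPM in duodenal and 16.3 ± 0.935 CPM in ceco-colonic nodes (log2 fold change -0.56 ± 0.09, adjusted p = 0.000314). Each of these held in both pairs.

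**Figure D3:**
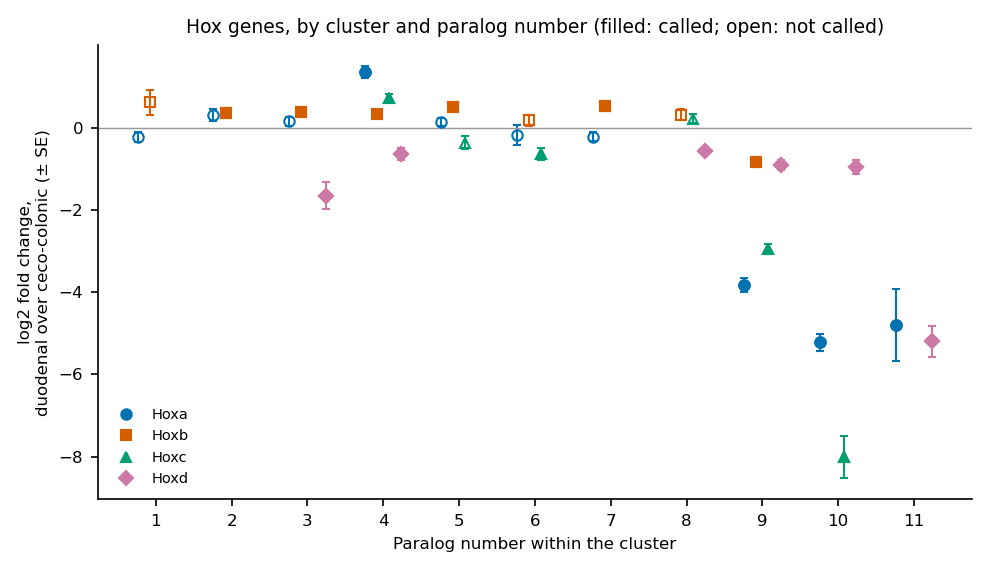
Log2 fold change of duodenal over ceco-colonic nodes, with SE, for each Hox gene tested, by paralog number within its cluster. Filled symbols were called and open symbols were not. Paralogs 1 to 8 lie within 1.66 of 0 in either direction, whereas all 9 genes of paralogs 9 to 11 lie below 0, down to -8.02 for Hoxc10.

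Other transcription factors that pattern mesenchyme also differed by position. Of 34 tested, 10 were called higher and 4 lower in duodenal nodes, 10 and 2 held, and 6 and 1 held in both pairs, with a median log2 fold change of 0.15. Irx1, an Iroquois homeobox gene, was at 0.5, 0.495, 0.724 and 0.73 CPM in duodenal nodes, against 6.08, 5.38, 7.65 and 6.2 CPM in ceco-colonic nodes. The duodenal libraries all lay far below the ceco-colonic ones (log2 fold change -3.37 ± 0.26, adjusted p = 3.85e-08). Hand2, which is used in visceral mesenchyme and autonomic neurons, was at 1.41, 4.52, 4.69 and 1.58 CPM in duodenal nodes, against 0.245, 0.273, 0.35 and 0.229 CPM in ceco-colonic nodes (log2 fold change 3.47 ± 0.41, adjusted p = 6.18e-06). Isl1, a LIM homeobox gene of neurons and foregut mesenchyme, was at 0.627, 1.47, 2.49 and 1.02 CPM in duodenal nodes, against 0.032, 0.0357, 0.0474 and 0.113 CPM in ceco-colonic nodes (log2 fold change 4.56 ± 0.56, adjusted p = 1.19e-05). Hand2 and Isl1 were highest in the libraries with the most smooth muscle and nerve transcripts, and the part of those transcripts in the result was not tested. In libraries 1 and 4, whose nerve transcript sums also exceeded the ceco-colonic range, both genes were still above every ceco-colonic library. Osr2, an odd-skipped related factor, rose by 2.15 ± 0.31 on the log2 scale. Meis1, a partner of Hox proteins on DNA, had 14.9 ± 1.91 CPM in duodenal and 10.2 ± 0.327 CPM in ceco-colonic nodes (log2 fold change 0.55 ± 0.08, adjusted p = 6.28e-05), with library 1 lowest among the duodenal libraries and still above all ceco-colonic ones. Nkx2-3, the homeobox factor that gut-associated nodes and spleen need for Madcam1, did not pass the test, at 23.4, 23.5, 21.5 and 18.1 CPM in duodenal nodes, against 22.9, 22.1, 21.6 and 22.1 CPM in ceco-colonic nodes (adjusted p = 0.862). Libraries 3 and 4 were below every ceco-colonic library and libraries 1 and 2 above, and the adjusted p in libraries 3 and 4 was 0.493.

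Secreted regulators of Wnt and BMP signalling, which set growth and patterning of stroma, were mostly higher where called. Of 35 tested, 16 were called higher and 5 lower, 16 and 4 held, and 11 and 4 held in both pairs, with a median log2 fold change of 0.40. Rspo3, an amplifier of Wnt signalling that comes from stroma and endothelium, was at 12.6, 11.8, 15.2 and 11.5 CPM in duodenal libraries, against 4.41, 4.37, 4.13 and 4.07 CPM in ceco-colonic libraries. All duodenal libraries lay near each other and well above the ceco-colonic libraries (log2 fold change 1.59 ± 0.10, adjusted p = 3.67e-09). The Wnt antagonist Sfrp1 was at 28.9, 39, 46 and 31.5 CPM in duodenal nodes, against 16.7, 15.5, 18.2 and 14.9 CPM in ceco-colonic nodes (log2 fold change 1.16 ± 0.13, adjusted p = 2.79e-06). Its relative Sfrp5 was at 4.04, 21.7, 27.4 and 9.41 CPM in duodenal nodes, against 0.853, 0.172, 1.17 and 0.31 CPM in ceco-colonic nodes (log2 fold change 4.62 ± 0.87, adjusted p = 0.000928). Both were highest in libraries 2 and 3, which had the most smooth muscle and nerve transcripts, and the part of those transcripts was not tested. Frzb, another secreted Wnt antagonist of this family, was lower, at 1.61, 2.5, 1.78 and 1.63 CPM in duodenal nodes, against 8.46, 14.2, 10.2 and 9.2 CPM in ceco-colonic nodes (log2 fold change -2.48 ± 0.21, adjusted p = 1.04e-07). Bmp5, a BMP ligand, was at 0.437, 0.884, 0.97 and 0.898 CPM in duodenal nodes, against 3.33, 3.37, 3.08 and 3.7 CPM in ceco-colonic nodes (log2 fold change -2.07 ± 0.20, adjusted p = 7.22e-07). Grem1, a BMP antagonist that T zone reticular cells make, was at 96, 69.1, 71.4 and 76.8 CPM in duodenal nodes, against 193, 192, 164 and 155 CPM in ceco-colonic nodes (log2 fold change -1.17 ± 0.17, adjusted p = 0.000101). Frzb, Bmp5 and Grem1 showed no overlap and held in both pairs.

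Matrix genes rose and fell. Among 34 matrix proteins, 11 were called higher and 6 lower (9 and 5 held), and among 32 collagen chains 10 were called higher and 4 lower (7 and 3 held); the median log2 fold changes were 0.23 and 0.14. Col6a6, a chain of the beaded filament collagen VI, was at 22.4, 20.7, 35.9 and 27.4 CPM in duodenal libraries, against 2.48, 1.77, 2.42 and 1.98 CPM in ceco-colonic libraries. The lowest duodenal library was above the highest ceco-colonic library many times over (log2 fold change 3.62 ± 0.20, adjusted p = 5.61e-10), with 3.87 in libraries 3 and 4. Postn, periostin, was at 303, 356, 416 and 329 CPM in duodenal nodes, against 130, 119.6, 118 and 125 CPM in ceco-colonic nodes (log2 fold change 1.51 ± 0.10, adjusted p = 3.13e-09). The basement membrane chain Col4a6 was at 1.98, 9.48, 12.5 and 2.46 CPM in duodenal nodes, against 0.384, 0.22, 0.295 and 0.171 CPM in ceco-colonic nodes (log2 fold change 4.63 ± 0.51, adjusted p = 3.23e-06). Col4a5, its partner chain, was higher by 2.997 ± 0.33. Both followed the smooth muscle sums, with libraries 2 and 3 highest, and the part of smooth muscle in them was not tested. Ogn, the small proteoglycan osteoglycin, had 37.5 ± 18 CPM in duodenal and 8.16 ± 1.11 CPM in ceco-colonic nodes (log2 fold change 2.20 ± 0.29, adjusted p = 2.45e-05). Its duodenal libraries were at 24.75, 45.5, 59 and 20.5 CPM, again highest in libraries 2 and 3, and the part of smooth muscle was not tested. Lower genes included Col24a1, a fibrillar collagen chain, at 0.587, 0.971, 0.94 and 0.614 CPM in duodenal nodes, against 6.54, 5.06, 5.93 and 6.25 CPM in ceco-colonic nodes (log2 fold change -2.93 ± 0.27, adjusted p = 3.13e-07). Thbs2, thrombospondin 2, was at 21.9, 27.7, 28 and 28.4 CPM in duodenal nodes, against 71.5, 74.6, 88.4 and 73.7 CPM in ceco-colonic nodes (log2 fold change -1.54 ± 0.09, adjusted p = 2.03e-09). Tnn, tenascin N, had 0.847 ± 0.171 CPM in duodenal and 2.62 ± 0.275 CPM in ceco-colonic nodes (log2 fold change -1.63 ± 0.18, adjusted p = 3.2e-06). Mmp3, the matrix protease stromelysin 1, was at 4.81, 9.85, 5.88 and 5.17 CPM in duodenal nodes, against 102, 141, 73.7 and 96.8 CPM in ceco-colonic nodes, so that the highest duodenal library was far below the lowest ceco-colonic one (log2 fold change -4.004 ± 0.38, adjusted p = 5.66e-07). P4ha3, a subunit of collagen prolyl hydroxylase, was at 0.564, 0.778, 0.894 and 0.492 CPM in duodenal nodes, against 6.25, 5.48, 5.46 and 5.69 CPM in ceco-colonic nodes (log2 fold change -3.06 ± 0.24, adjusted p = 5.51e-08). All of the lower genes named here held in both pairs.

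Retinoid genes control how vitamin A is stored, oxidised to retinoic acid and sensed, and retinoic acid made in gut nodes instructs lymphocytes to home to the intestine. Of 29 tested, 10 were called higher and 1 lower, the same numbers held, and 7 and 1 held in both pairs, with a median log2 fold change of 0.04. Aldh1a1, a retinaldehyde dehydrogenase, was at 16.8, 28.5, 36.9 and 16.4 CPM in duodenal libraries, against 5.67, 3.26, 5.36 and 4.03 CPM in ceco-colonic libraries. Each duodenal library was above each ceco-colonic library, and libraries 2 and 3 were the highest (log2 fold change 2.43 ± 0.26, adjusted p = 2.3e-06). Aldh1a2, the retinaldehyde dehydrogenase of gut dendritic cells and stroma, did not pass the test, at 128, 147, 130.3 and 181 CPM in duodenal nodes, against 167, 169.8, 153 and 187 CPM in ceco-colonic nodes (log2 fold change -0.21 ± 0.15, adjusted p = 0.38). Dhrs3, which returns retinaldehyde to retinol and is itself raised by retinoic acid, had 74.8 ± 7.61 CPM in duodenal and 43.8 ± 2.64 CPM in ceco-colonic nodes (log2 fold change 0.77 ± 0.09, adjusted p = 1.01e-05), with library 4 highest. The receptor gene Rxrg had 5.98 ± 0.87 CPM in duodenal and 3.21 ± 0.428 CPM in ceco-colonic nodes (log2 fold change 0.90 ± 0.13, adjusted p = 5.43e-05). The receptor gene Rara had 52.7 ± 2.63 CPM in duodenal and 66.6 ± 2.38 CPM in ceco-colonic nodes (log2 fold change -0.34 ± 0.05, adjusted p = 0.00011), lower in all duodenal libraries.

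Genes of the aryl hydrocarbon receptor, a sensor of dietary, microbial and synthetic ring compounds, were higher in duodenal nodes where called. The list holds targets of the receptor, the receptor gene Ahr and the gene of its partner, Arnt. Of 8 tested, 5 were called higher and none lower, namely Ahr and the targets Cyp1b1, Cyp1a1, Aldh3a1 and Nqo1. All 5 held and the 4 targets held in both pairs, and the list had a median log2 fold change of 0.37. The promoters of Cyp1a1 and Cyp1b1, whose enzymes break down ligands of the receptor, are shown because both genes rose and both windows hold the core of the receptor's response element. The windows run from 250 bases before to 50 bases after the transcription start (RefSeq, GRCm38.p6), at chr9:57697363-57697662 on the plus strand for Cyp1a1 and chr17:79715012-79715311 on the minus strand for Cyp1b1. Capitals mark the core, GCGTG, or CACGC where it lies on the other strand.
Cyp1a1: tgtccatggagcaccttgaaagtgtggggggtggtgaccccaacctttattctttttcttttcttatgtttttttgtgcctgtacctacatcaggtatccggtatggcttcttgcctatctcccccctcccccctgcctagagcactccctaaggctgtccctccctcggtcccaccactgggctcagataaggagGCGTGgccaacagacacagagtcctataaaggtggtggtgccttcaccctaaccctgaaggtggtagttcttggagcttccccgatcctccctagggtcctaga
Cyp1b1: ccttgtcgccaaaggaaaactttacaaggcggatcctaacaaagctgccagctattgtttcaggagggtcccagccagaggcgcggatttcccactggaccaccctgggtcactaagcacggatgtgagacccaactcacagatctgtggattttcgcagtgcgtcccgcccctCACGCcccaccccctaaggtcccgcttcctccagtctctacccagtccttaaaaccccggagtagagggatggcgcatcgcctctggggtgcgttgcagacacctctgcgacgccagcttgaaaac
Each window has 1 match. Of the genes of the list, 5 of the 7 windows found hold at least 1, and 32.4% of 32851 promoter windows of the same length hold the core on either strand. Among the other called targets, the window of Nqo1 has 0 matches, and no window was found for Aldh3a1. A match of these letters is a description and not a binding site.

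Cyp1b1 was at 199, 173, 239.9 and 193 CPM in duodenal libraries, against 108, 97.4, 98 and 90 CPM in ceco-colonic libraries. The lowest duodenal library was far above the highest ceco-colonic library (log2 fold change 1.03 ± 0.11, adjusted p = 1.5e-06). Cyp1a1, at much lower levels, was at 0.863, 1.21, 1.28 and 1.05 CPM in duodenal nodes, against 0.432, 0.624, 0.237 and 0.357 CPM in ceco-colonic nodes (log2 fold change 1.43 ± 0.25, adjusted p = 0.000521). Aldh3a1, an aldehyde dehydrogenase gene induced through the same receptor, was at 1.04, 0.927, 1.21 and 0.898 CPM in duodenal nodes, against 0.357, 0.279, 0.292 and 0.345 CPM in ceco-colonic nodes (log2 fold change 1.68 ± 0.30, adjusted p = 0.000555). Nqo1, a quinone reductase gene that also answers to oxidative stress, had 4.85 ± 0.857 CPM in duodenal and 3.43 ± 0.209 CPM in ceco-colonic nodes (log2 fold change 0.50 ± 0.11, adjusted p = 0.00388), with library 3 standing above the rest. Ahr, the receptor gene, had 57.9 ± 2.78 CPM in duodenal and 49.3 ± 1.01 CPM in ceco-colonic nodes, a small difference without overlap (log2 fold change 0.23 ± 0.06, adjusted p = 0.0101) that did not hold in libraries 1 and 4. The summed level of the list, with Ahr and Arnt in it, was 345, 339, 410.1 and 364 CPM in duodenal libraries 1 to 4, against 257, 241, 251 and 238 CPM in ceco-colonic libraries, with library 3 highest and all duodenal libraries above all ceco-colonic ones.

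Blood endothelial genes were mostly higher where called. Of 23 blood endothelial genes, 7 were called higher and 1 lower, 7 and 0 held, with a median log2 fold change of 0.20. Apln, apelin of sprouting endothelium, was at 3.84, 4.61, 6.33 and 5.36 CPM in duodenal nodes, against 2.14, 2.44, 2.63 and 2.25 CPM in ceco-colonic nodes (log2 fold change 1.09 ± 0.17, adjusted p = 0.0002). Kdr, the VEGF receptor, was at 228, 226, 298 and 232 CPM in duodenal nodes, against 178, 178, 194 and 165 CPM in ceco-colonic nodes (log2 fold change 0.46 ± 0.09, adjusted p = 0.00141), with library 3 well above the other duodenal libraries. Emcn, endomucin, and Icam2 rose by 0.65 and 0.32 on the log2 scale. Of 16 genes of high endothelial venules, 1 was called higher and 4 lower, and 2 of the lower ones held. Their summed level went the other way, at 2163, 2205, 2385 and 2227 CPM in duodenal libraries 1 to 4, against 1901, 2046, 1827 and 1899 CPM in ceco-colonic libraries, so that every duodenal library was above every ceco-colonic library. Madcam1, the address molecule that gut-homing lymphocytes bind, was at 104, 65.7, 72.8 and 47.7 CPM in duodenal libraries, against 120, 144, 137 and 110.4 CPM in ceco-colonic libraries. The groups did not overlap, although library 1 came close to the lowest ceco-colonic library (log2 fold change -0.82 ± 0.18, adjusted p = 0.00363), and the call was lost without libraries 3 and 4 (adjusted p = 0.0525). Sele, E-selectin, was at 0.725, 0.942, 0.745 and 0.791 CPM in duodenal nodes, against 1.9, 1.97, 1.49 and 2.24 CPM in ceco-colonic nodes (log2 fold change -1.24 ± 0.26, adjusted p = 0.00227) and held in both pairs.

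Of 20 lymphatic endothelial genes, 8 were called higher and 1 lower, the same numbers held, and 5 and 1 held in both pairs, with a median log2 fold change of 0.34. Clec4g, a C-type lectin of sinus lining cells, was at 22, 17.4, 28.9 and 18.6 CPM in duodenal libraries, against 6.84, 4.69, 5.39 and 3.76 CPM in ceco-colonic libraries. No duodenal library came near the ceco-colonic range (log2 fold change 2.07 ± 0.16, adjusted p = 2.94e-08). Reln, reelin of lymphatic endothelium, was at 28.7, 27.3, 49 and 28.2 CPM in duodenal nodes, against 14.9, 10.3, 16.3 and 11 CPM in ceco-colonic nodes (log2 fold change 1.34 ± 0.22, adjusted p = 0.000229). Cldn11, a tight junction gene of valves, had 15.2 ± 3.25 CPM in duodenal and 8.04 ± 0.644 CPM in ceco-colonic nodes (log2 fold change 0.92 ± 0.11, adjusted p = 1.32e-05). Ccl20, a chemokine of the floor of the subcapsular sinus that draws CCR6-positive cells, was lower, with 28, 17, 54 and 64 estimated counts in duodenal libraries, against 213, 395, 454 and 660 in ceco-colonic libraries (log2 fold change -3.27 ± 0.37, adjusted p = 4.62e-06). The sign of the other called members was thus opposite to that of Ccl20.

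Reticular cell genes were called in both directions. Of 14 genes of T zone reticular cells, 1 was called higher and 3 lower, and all 4 held, with a median log2 fold change of -0.34. Their summed level was 4173, 3686, 3877 and 4003 CPM in duodenal libraries 1 to 4, against 5276, 5950, 5091 and 5163 CPM in ceco-colonic libraries. Every duodenal library was thus below every ceco-colonic library. Tnfsf13b, which encodes the B cell survival factor BAFF, was at 45.8, 40.6, 42.1 and 47.2 CPM in duodenal nodes, against 66.8, 88.3, 79.5 and 80.7 CPM in ceco-colonic nodes (log2 fold change -0.84 ± 0.10, adjusted p = 5.04e-06). Cxcl16, a chemokine for CXCR6-positive cells that myeloid cells also make, had 359 ± 46.1 CPM in duodenal and 521 ± 42.8 CPM in ceco-colonic nodes (log2 fold change -0.54 ± 0.09, adjusted p = 0.000267). Pdgfra, a receptor of fibroblasts, had 86.7 ± 11.1 CPM in duodenal and 66.7 ± 3.49 CPM in ceco-colonic nodes (log2 fold change 0.38 ± 0.10, adjusted p = 0.0112), but did not hold in libraries 1 and 4. Of 12 medullary reticular genes 3 were called higher and 2 lower. Cxcl14, a chemokine of fibroblasts, was at 17.5, 13.2, 19.2 and 18.1 CPM in duodenal nodes, against 5.8, 8.03, 5.73 and 8.72 CPM in ceco-colonic nodes (log2 fold change 1.27 ± 0.20, adjusted p = 0.000187). Inmt, a methyltransferase gene of medullary fibroblasts, was at 208, 119, 189 and 127 CPM in duodenal nodes, against 93.7, 47.5, 74.3 and 67.4 CPM in ceco-colonic nodes (log2 fold change 1.18 ± 0.20, adjusted p = 0.000276). Il6 was lower, at 2.61, 1.52, 1.39 and 1.54 CPM in duodenal nodes, against 4.02, 4.33, 2.62 and 4.18 CPM in ceco-colonic nodes (log2 fold change -1.10 ± 0.21, adjusted p = 0.000993). Igf1 was lower as well (log2 fold change -0.37 ± 0.09, adjusted p = 0.00613), held in libraries 3 and 4 and did not hold in libraries 1 and 4. Among 10 genes of follicular reticular cells, Sox9 was at 1.86, 2.06, 2.19 and 1.74 CPM in duodenal nodes, against 0.379, 0.505, 0.587 and 0.582 CPM in ceco-colonic nodes (log2 fold change 1.93 ± 0.17, adjusted p = 2.39e-07). Coch, cochlin, was at 4.87, 2.93, 4.75 and 3.71 CPM in duodenal nodes, against 15.1, 26, 25.7 and 29.2 CPM in ceco-colonic nodes (log2 fold change -2.56 ± 0.25, adjusted p = 6.52e-07). Cxcl13, the B cell chemokine, was at 49.1, 27.8, 42 and 25.6 CPM in duodenal nodes, against 53.5, 83.5, 65.6 and 77.7 CPM in ceco-colonic nodes (log2 fold change -0.95 ± 0.29, adjusted p = 0.0289). Its groups did not overlap, but it did not hold in libraries 3 and 4 (adjusted p = 0.0776), and leaving out duodenal library 2 or 4 or ceco-colonic library 2 or 4 ended its call (adjusted p = 0.0927, 0.0769, 0.077 and 0.0694).

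Chemokine genes were called lower far more often than higher. Of 37 tested, 4 were called higher and 14 lower, 2 and 13 held, and 2 and 11 held in both pairs, with a median log2 fold change of -0.17. Ccl8, a ligand of CCR8 in the mouse that resident macrophages make, was at 3.2, 2.05, 2.01 and 1.69 CPM in duodenal libraries, against 42.3, 52.1, 22.4 and 49.5 CPM in ceco-colonic libraries. The highest duodenal library was well below the lowest ceco-colonic library (log2 fold change -4.22 ± 0.29, adjusted p = 9.44e-09). Cx3cl1, fractalkine, was at 23.8, 24.8, 24.9 and 28.1 CPM in duodenal nodes, against 64.9, 65.7, 73.6 and 69.2 CPM in ceco-colonic nodes (log2 fold change -1.43 ± 0.08, adjusted p = 4.68e-10), with little spread inside either group. Ccl12, a mouse ligand of CCR2, was at 7, 4.79, 3.91 and 4.83 CPM in duodenal nodes, against 17.4, 22.9, 17.1 and 18.3 CPM in ceco-colonic nodes (log2 fold change -1.88 ± 0.19, adjusted p = 9.56e-07). Cxcl5, a neutrophil chemokine, was higher, at 5.23, 6.14, 4 and 4.39 CPM in duodenal nodes, against 0.922, 1.31, 1.21 and 1.49 CPM in ceco-colonic nodes (log2 fold change 2 ± 0.22, adjusted p = 3.46e-06). The receptor gene Ccr2, of monocytes, had 108 ± 4.54 CPM in duodenal and 166 ± 24.3 CPM in ceco-colonic nodes (log2 fold change -0.62 ± 0.11, adjusted p = 0.000458) and was lower in every duodenal library than in any ceco-colonic library. Of 22 receptor genes 5 were called higher and 8 lower, of which 1 and 4 held.

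Ligands of the TNF superfamily, which costimulate lymphocytes, included 5 called lower and 1 called higher of 17, all of which held in both pairs. Tnfsf4, which encodes OX40 ligand, was at 1.94, 1.07, 1.35 and 1.26 CPM in duodenal libraries, against 15, 13.5, 9.31 and 12.2 CPM in ceco-colonic libraries. It was several times lower in every duodenal library than in any ceco-colonic library (log2 fold change -3.16 ± 0.24, adjusted p = 2.73e-08). Cd70, the CD27 ligand, was at 0.656, 0.586, 0.47 and 0.527 CPM in duodenal nodes, against 2.53, 2.08, 1.57 and 2.27 CPM in ceco-colonic nodes (log2 fold change -1.92 ± 0.19, adjusted p = 7.67e-07). Tnfsf15, a ligand of DR3, had 6.08 ± 0.876 CPM in duodenal and 12.5 ± 1.47 CPM in ceco-colonic nodes (log2 fold change -1.04 ± 0.13, adjusted p = 1.53e-05).

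Genes of migratory dendritic cells, which carry antigen from the gut wall into the node, fell. Of 14 tested, 10 were called lower and none higher, 9 held and 6 held in both pairs, with a median log2 fold change of -0.42. Their summed level was 5897, 5634, 5551 and 7046 CPM in duodenal libraries 1 to 4, against 8773, 8923, 8591 and 9015 CPM in ceco-colonic libraries, so the duodenal libraries were all below the ceco-colonic libraries and library 4 was the highest of them. Il12b, the shared p40 chain of IL-12 and IL-23, was at 40.5, 29, 27.8 and 28.4 CPM in duodenal libraries, against 118, 124, 86.3 and 102 CPM in ceco-colonic libraries. The groups were wide apart and library 1 was the highest duodenal library (log2 fold change -1.78 ± 0.15, adjusted p = 1.52e-07). Ccl17, a CCR4 ligand of dendritic cells, was at 16.7, 10.7, 10.9 and 18.6 CPM in duodenal nodes, against 37.1, 38.2, 25.9 and 37.3 CPM in ceco-colonic nodes (log2 fold change -1.28 ± 0.22, adjusted p = 0.000339). Fscn1, fascin of mature dendritic cells, was at 1583, 1621, 1659 and 2101 CPM in duodenal nodes, against 2814, 2922, 2848 and 2972 CPM in ceco-colonic nodes (log2 fold change -0.73 ± 0.12, adjusted p = 0.000214).

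Of 13 genes of type 2 dendritic cells, 8 were called lower and none higher, 5 held and 4 held in both pairs, with a median log2 fold change of -0.37. Irf4, the factor these cells need for migration, was at 22.3, 28, 25 and 30.7 CPM in duodenal nodes, against 47.8, 51.3, 43.5 and 52.1 CPM in ceco-colonic nodes (log2 fold change -0.88 ± 0.10, adjusted p = 2.62e-06). The lectin gene Clec10a had 27.4 ± 6.13 CPM in duodenal and 53 ± 2.2 CPM in ceco-colonic nodes (log2 fold change -0.95 ± 0.12, adjusted p = 9.87e-06). Mgl2, a related lectin gene, had 6.34 ± 1.99 CPM in duodenal and 14.9 ± 3.28 CPM in ceco-colonic nodes (log2 fold change -1.24 ± 0.19, adjusted p = 0.000143). Pdcd1lg2, PD-L2, was at 24.9, 25.1, 25.8 and 32.6 CPM in duodenal nodes, against 44.2, 43.1, 40.1 and 42.5 CPM in ceco-colonic nodes (log2 fold change -0.65 ± 0.10, adjusted p = 0.000139). Genes of type 1 dendritic cells did not share one direction, with 4 called higher and 2 lower of 13. Clec9a, their receptor for dead cells, was at 137, 106, 115 and 119 CPM in duodenal nodes, against 75.1, 65.1, 76.9 and 61.7 CPM in ceco-colonic nodes (log2 fold change 0.77 ± 0.11, adjusted p = 4.04e-05). Tlr3, which senses double-stranded RNA, had 46.1 ± 5.36 CPM in duodenal and 31.5 ± 2.24 CPM in ceco-colonic nodes (log2 fold change 0.55 ± 0.09, adjusted p = 0.000163). Itgae, the CD103 integrin chain found on gut dendritic cells and on lymphocytes, was at 48.2, 40.7, 43.5 and 49.9 CPM in duodenal nodes, against 84.7, 71.8, 68.5 and 75 CPM in ceco-colonic nodes (log2 fold change -0.72 ± 0.09, adjusted p = 1.19e-05). These type 1 genes thus moved in opposite directions without overlap between the groups.

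Among MHC class II genes, which present antigen, 1 was called higher and 4 lower of 11 (8.24% and 8.17% of all genes were). Ciita, the master activator of the class II genes, had 222 ± 23.2 CPM in duodenal and 291 ± 20.2 CPM in ceco-colonic nodes (log2 fold change -0.39 ± 0.08, adjusted p = 0.00127). H2-Eb2, a class II chain gene, was higher, with 101.1 ± 6.98 CPM in duodenal and 77 ± 6.1 CPM in ceco-colonic nodes (log2 fold change 0.39 ± 0.07, adjusted p = 0.000767). Of 12 genes of plasmacytoid dendritic cells, 2 were called in each direction and the 2 lower ones held. Spib, a transcription factor of these cells and of B cells, had 134 ± 10.6 CPM in duodenal and 187 ± 4.44 CPM in ceco-colonic nodes (log2 fold change -0.48 ± 0.07, adjusted p = 0.000129).

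Macrophage genes moved both ways, with 4 called higher and 5 lower of 22 (4 and 3 held). Cd163, the haemoglobin scavenger receptor, was at 13.4, 15, 23.3 and 18.7 CPM in duodenal libraries, against 5.91, 3.14, 4.31 and 3.26 CPM in ceco-colonic libraries. All duodenal libraries were above all ceco-colonic libraries (log2 fold change 2.08 ± 0.25, adjusted p = 1.04e-05). Folr2, a folate receptor of resident macrophages, was lower, at 5.87, 4.87, 8.76 and 4.07 CPM in duodenal nodes, against 14.3, 16.6, 16.6 and 15.8 CPM in ceco-colonic nodes (log2 fold change -1.42 ± 0.17, adjusted p = 8.72e-06). Cd5l, a secreted protein of tissue macrophages, had 204 ± 33.4 CPM in duodenal and 344 ± 87.1 CPM in ceco-colonic nodes (log2 fold change -0.75 ± 0.16, adjusted p = 0.00307) and did not hold in libraries 1 and 4. Of 23 genes of lipid uptake and export, none was called higher and 6 were called lower, 4 of which held in both pairs, with a median log2 fold change of -0.08. Trem2, a lipid receptor of macrophages, was at 8.36, 6.13, 8.89 and 8.41 CPM in duodenal nodes, against 17.9, 19.9, 20 and 17.5 CPM in ceco-colonic nodes (log2 fold change -1.24 ± 0.13, adjusted p = 2.3e-06). Fabp5, a fatty acid carrier, had 129 ± 10.8 CPM in duodenal and 212 ± 16.7 CPM in ceco-colonic nodes (log2 fold change -0.72 ± 0.10, adjusted p = 3.56e-05). Abcg1, a cholesterol exporter, was at 194, 201, 224 and 281 CPM in duodenal nodes, against 338, 359, 511 and 414 CPM in ceco-colonic nodes (log2 fold change -0.85 ± 0.15, adjusted p = 0.000609). Sterol synthesis genes went the other way, with 9 called higher and 1 lower of 25 (8 and 0 held, 6 and 0 in both pairs) and a median log2 fold change of 0.18. Sqle, squalene epoxidase, had 30.2 ± 2.68 CPM in duodenal and 20.8 ± 2.21 CPM in ceco-colonic nodes (log2 fold change 0.54 ± 0.09, adjusted p = 0.000324). The adipocyte sums given above overlapped between the groups, and the part of fat tissue in these differences was not tested.

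Innate lymphoid genes separated the nodes gene by gene. Group 2 cells answer to IL-25 and IL-33, and of their 16 genes 7 were called higher and 2 lower, 4 and 1 held, and the same numbers held in both pairs. Il17rb, a chain of the IL-25 receptor, was at 63.4, 71.3, 51.9 and 83.7 CPM in duodenal libraries, against 28.6, 23.6, 24.3 and 29.2 CPM in ceco-colonic libraries. Library 3 was the lowest duodenal library and still above every ceco-colonic library (log2 fold change 1.36 ± 0.13, adjusted p = 4.04e-07). Il1rl1, the IL-33 receptor, was at 36.4, 31.1, 25 and 42 CPM in duodenal nodes, against 15.8, 12.4, 12 and 17.1 CPM in ceco-colonic nodes (log2 fold change 1.23 ± 0.15, adjusted p = 9.77e-06). Arg1, arginase 1, which macrophages also express, was at 12.6, 13.3, 10.2 and 14.5 CPM in duodenal nodes, against 3.64, 3.35, 3.07 and 4.03 CPM in ceco-colonic nodes (log2 fold change 1.84 ± 0.15, adjusted p = 1.04e-07). Ptgdr2, the prostaglandin D2 receptor CRTH2 that eosinophils also carry, was lower at low levels, with 0.256 ± 0.0253 CPM in duodenal and 0.75 ± 0.254 CPM in ceco-colonic nodes (log2 fold change -1.56 ± 0.21, adjusted p = 2.6e-05). Il33 itself did not pass the test, at 271 ± 21.8 CPM in duodenal and 307 ± 27.2 CPM in ceco-colonic nodes (adjusted p = 0.271). The summed level of the list was 346, 332, 283 and 371 CPM in duodenal libraries 1 to 4, against 245, 236, 224 and 241 CPM in ceco-colonic libraries.

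Il22 and the gene of its binding protein were lower in duodenal nodes. Il22, the cytokine of group 3 cells that acts on epithelium, had 17, 13, 5 and 67 estimated counts in duodenal libraries, against 591, 356, 599 and 351 in ceco-colonic libraries (log2 fold change -4.10 ± 0.68, adjusted p = 0.000275). Il22ra2, the secreted binding protein that blocks IL-22 and that dendritic cells make, was at 3.3, 1.48, 1.56 and 1.78 CPM in duodenal nodes, against 26.4, 9.62, 13.6 and 23.6 CPM in ceco-colonic nodes (log2 fold change -3.18 ± 0.33, adjusted p = 1.33e-06). Both were lower in every duodenal library than in any ceco-colonic library, and of 15 group 3 genes in all 2 were called higher and 3 lower, of which 2 and 1 held.

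No gene of natural killer cells and group 1 cells was called higher, 6 of 18 were called lower and 4 held, 3 of them in both pairs, with a median log2 fold change of -0.20. Gzmc, granzyme C, was at 2.92, 3.08, 2.48 and 1.98 CPM in duodenal libraries, against 23.2, 21.2, 14.8 and 20.9 CPM in ceco-colonic libraries. It was several times lower in each duodenal library (log2 fold change -2.94 ± 0.17, adjusted p = 7.61e-10). Eomes, a T-box factor of natural killer cells, had 32.8 ± 0.986 CPM in duodenal and 45.1 ± 3.48 CPM in ceco-colonic nodes (log2 fold change -0.46 ± 0.09, adjusted p = 0.00109). Eosinophil genes fell too, with 7 of 8 called lower, 5 held and 3 held in both pairs, and a median log2 fold change of -1.02. Their summed level was 38.5, 30.9, 26.8 and 32.1 CPM in duodenal libraries 1 to 4, against 57, 49.2, 52.8 and 54.4 CPM in ceco-colonic libraries, without overlap. Prg2, major basic protein, was at 2.43, 1.18, 1.24 and 1.23 CPM in duodenal nodes, against 4.94, 3.82, 3.08 and 3.24 CPM in ceco-colonic nodes (log2 fold change -1.31 ± 0.24, adjusted p = 0.000642). Siglecf, a lectin that alveolar macrophages also carry, was at 1.26, 0.976, 0.792 and 1.56 CPM in duodenal nodes, against 1.98, 1.97, 3.63 and 3.23 CPM in ceco-colonic nodes (log2 fold change -1.24 ± 0.24, adjusted p = 0.000976). Ear2, an eosinophil ribonuclease, had 14.9 ± 1.06 CPM in duodenal and 20.2 ± 2.07 CPM in ceco-colonic nodes (log2 fold change -0.45 ± 0.10, adjusted p = 0.00455), and its call was lost without libraries 3 and 4 (adjusted p = 0.0594). Of 14 neutrophil genes, 1 was called lower and held, a count near the share of all genes called lower (8.17%).

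**Figure D4:**
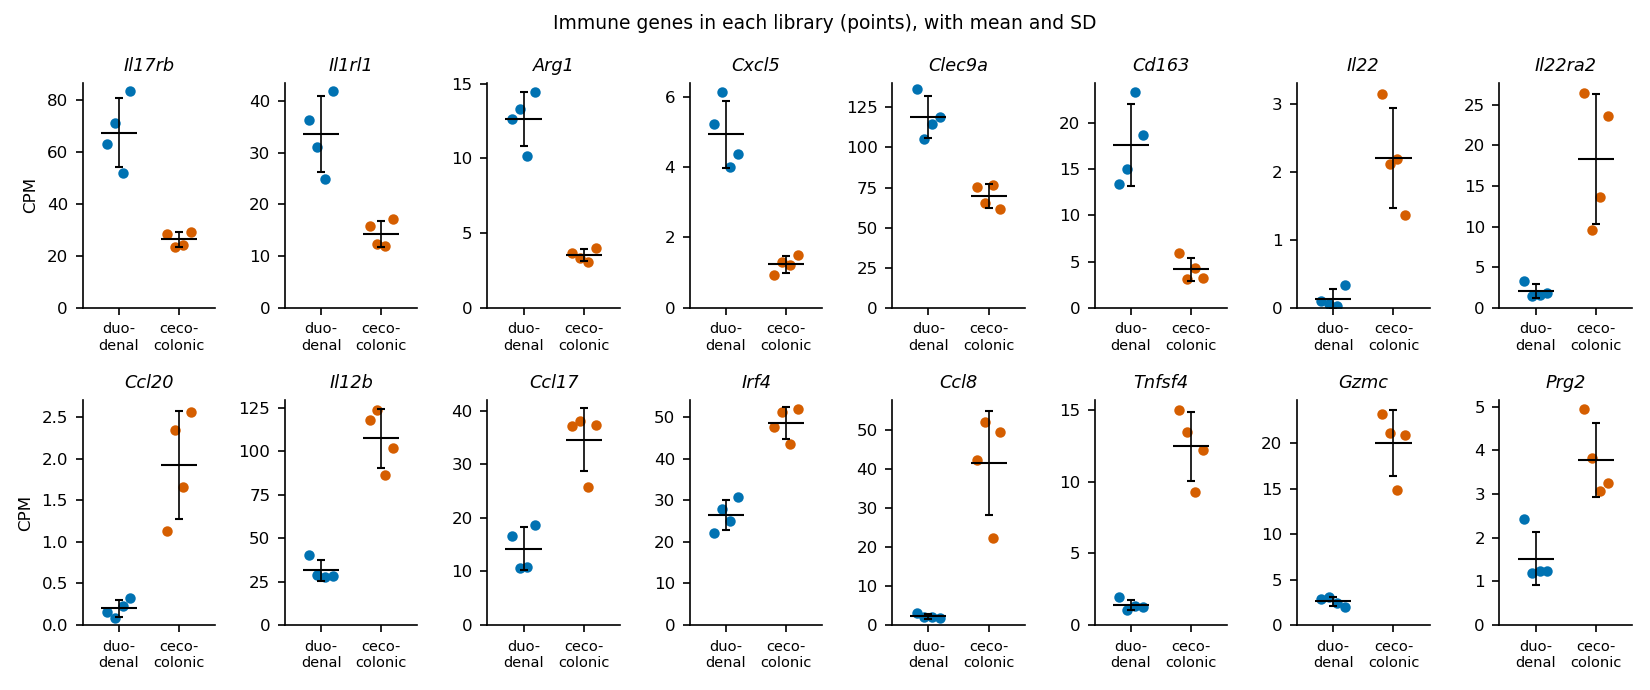
Level in CPM of 16 immune genes in each library, with duodenal nodes on the left and ceco-colonic nodes on the right of each panel; bars give the mean and SD over 4 libraries, and each panel has its own axis from 0. The groups do not overlap for any of the 16 genes: Il17rb, Il1rl1, Arg1, Cxcl5, Clec9a and Cd163 are higher in duodenal nodes and the other 10 are lower.

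Genes of the T and B lineage lists were detected in these Rag1-/- nodes. The T lineage list summed to 693, 620.1, 654 and 701 CPM in duodenal libraries 1 to 4, against 707, 703, 726 and 679.8 CPM in ceco-colonic libraries, and the groups overlapped. Of 18 T lineage genes, 6 were called higher and 2 lower (4 and 1 held in both pairs). Cd3g, a chain of the T cell receptor complex that innate lymphocytes also transcribe, was at 6.87, 5.22, 4.69 and 5.62 CPM in duodenal nodes, against 3.07, 3.03, 1.88 and 2.43 CPM in ceco-colonic nodes (log2 fold change 1.11 ± 0.15, adjusted p = 3.98e-05). Tcf7, the factor TCF-1 of T cells and innate lymphoid cells, was at 185, 181, 192 and 216 CPM in duodenal nodes, against 303, 289, 286 and 292 CPM in ceco-colonic nodes (log2 fold change -0.60 ± 0.07, adjusted p = 1.1e-05). Of 20 B lineage genes, 3 were called higher and 4 lower, of which 2 and 1 held. Ms4a1, which encodes CD20, was at 4.11, 4.03, 3.47 and 4.24 CPM in duodenal nodes, against 1.36, 1.57, 1.09 and 1.63 CPM in ceco-colonic nodes (log2 fold change 1.49 ± 0.12, adjusted p = 1.01e-07). Blk, a kinase of B cells, was at 1.22, 0.774, 0.758 and 1.17 CPM in duodenal nodes, against 2.16, 2.53, 2.4 and 2.3 CPM in ceco-colonic nodes (log2 fold change -1.26 ± 0.22, adjusted p = 0.000405). Rag2 was at 0.364 ± 0.0781 CPM in duodenal and 0.363 ± 0.0831 CPM in ceco-colonic nodes and did not pass the test (adjusted p = 0.992). Among 9 genes of lymphoid precursors, 1 was called lower and held, a count near the share of all genes called lower (8.17%).

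Interferon response genes depended on the libraries and the fit. Of 21 tested, 3 were called higher and none held, with a median log2 fold change of 0.38; a fit of only the 8 libraries called 8 higher, and without duodenal libraries 1 and 2 edgeR called 0, with 1 at an unadjusted p under 0.05. All 4 duodenal libraries were above all 4 ceco-colonic libraries in 9 of the 21 (8.25% of all genes were), and below them in 0. Irf7, which amplifies the response, was at 667, 630.1, 612 and 622 CPM in duodenal nodes, against 342, 497, 687 and 423 CPM in ceco-colonic nodes, and ceco-colonic libraries differed among themselves by more than the gap between the groups (adjusted p = 0.279). GTPase and other genes that interferon gamma induces were lower where called, 4 of 16, with 3 held and 2 in both pairs. Gbp5, a guanylate binding protein, was at 148, 134, 132 and 156 CPM in duodenal nodes, against 201, 215, 205 and 222 CPM in ceco-colonic nodes (log2 fold change -0.56 ± 0.10, adjusted p = 0.000447). Of 20 Toll-like and NOD receptor genes, 2 were called higher and 4 lower, of which 2 and 1 held.

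Of 28 complement genes, 7 were called higher (8.24% of all genes were) and 3 lower (8.17% of all genes were), with 6 and 2 held. The count of lower calls was thus near the share of all genes. Cfi, factor I, which cuts C3b, was at 4.53, 3.24, 3.59 and 4.64 CPM in duodenal nodes, against 8.32, 8.64, 6.94 and 8.15 CPM in ceco-colonic nodes (log2 fold change -1.003 ± 0.17, adjusted p = 0.000296). C3ar1, the receptor of the C3a fragment, had 11 ± 1.52 CPM in duodenal and 18.2 ± 2.28 CPM in ceco-colonic nodes (log2 fold change -0.73 ± 0.12, adjusted p = 0.000266). Cfi and C3ar1 both held in both pairs.

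None of 14 cell division genes was called by edgeR, DESeq2 or limma-voom, 1 had an unadjusted p under 0.05, and Mki67, which marks dividing cells, was at 99.8 ± 12.1 CPM in duodenal and 117 ± 5.91 CPM in ceco-colonic nodes (adjusted p = 0.162). None of 17 adipocyte, 7 skeletal muscle and 8 erythroid genes was called by edgeR, where 1, 0 and 3 had an unadjusted p under 0.05, and DESeq2 called 2 of the erythroid genes. Hba-a2, an alpha globin whose reads cannot be told apart with certainty from those of its near-identical copy, had an adjusted p of 0.271. Of 15 intestinal epithelial genes 6 were called higher and 3 lower, and 4 and 2 held; their summed level was 89.4, 75.9, 24.3 and 24.1 CPM in duodenal libraries 1 to 4, against 19.4, 18.8, 18.7 and 20.1 CPM in ceco-colonic libraries, above the ceco-colonic range by several-fold only in libraries 1 and 2. Of 8 pancreatic islet genes 2 were called higher and held, of 12 mast cell genes 2 were called higher and 1 held, and of 18 immediate early genes 1 was called higher and 4 lower, of which 1 and 2 held.

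**Figure D5:**
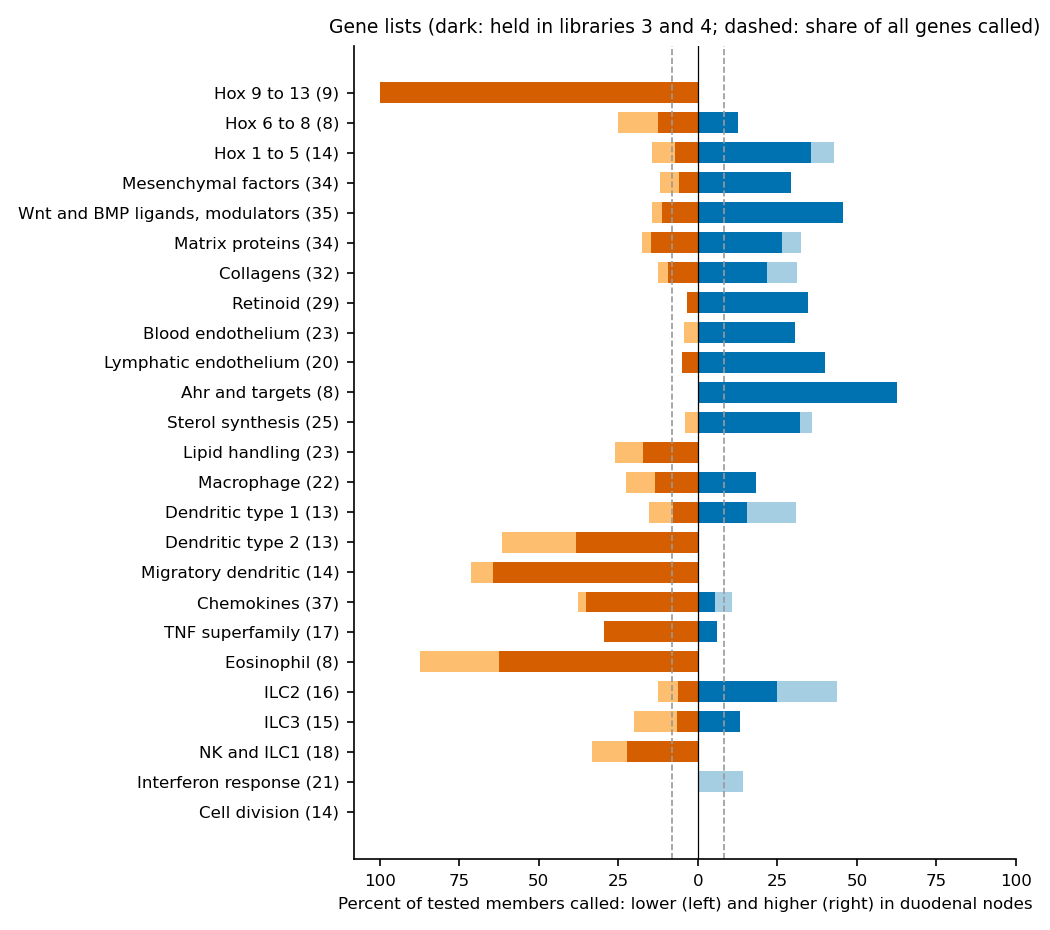
Share of tested members of 25 gene lists called lower (left of 0) and higher (right of 0) in duodenal nodes, in percent, with the number tested in brackets. Dark bars are members that held in duodenal libraries 3 and 4, light bars are members that were called and did not hold, and dashed lines give the share of all 29411 genes called lower (8.17%) and higher (8.24%). Hox paralogs 9 to 13 reach 100% lower, and cell division genes have no bar.

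Jejunal and ileal nodes lie between these positions along the gut, and their levels place some of the differences; no test was made between positions here beyond duodenal against ceco-colonic. Hoxc10 averaged 0.0236 ± 0.0331 CPM in duodenal, 0.154 ± 0.0835 CPM in jejunal, 1.17 ± 0.453 CPM in ileal and 6.73 ± 0.468 CPM in ceco-colonic nodes. Hoxa9 averaged 0.39 ± 0.0694 CPM in duodenal, 1.05 ± 0.18 CPM in jejunal, 1.91 ± 0.175 CPM in ileal and 5.56 ± 0.468 CPM in ceco-colonic nodes, so that both genes were highest at the ceco-colonic end. Ccl8 averaged 2.24 ± 0.661 CPM in duodenal, 2.68 ± 0.398 CPM in jejunal, 4.55 ± 1.7 CPM in ileal and 41.6 ± 13.4 CPM in ceco-colonic nodes. Mmp3 averaged 6.43 ± 2.33 CPM in duodenal, 6.47 ± 1.82 CPM in jejunal, 13.2 ± 8.88 CPM in ileal and 103 ± 27.8 CPM in ceco-colonic nodes. Both had means in the 3 small intestinal positions that were below the ceco-colonic mean by several-fold. Col6a6 averaged 26.6 ± 6.82 CPM in duodenal, 34 ± 8.86 CPM in jejunal, 31.3 ± 5.88 CPM in ileal and 2.16 ± 0.344 CPM in ceco-colonic nodes, low in the ceco-colonic node alone among these means. Il22 averaged 0.13 ± 0.143 CPM in duodenal, 1.79 ± 1.37 CPM in jejunal, 2.71 ± 1.15 CPM in ileal and 2.2 ± 0.734 CPM in ceco-colonic nodes, and the duodenal mean was the lowest of the 4. Cyp1b1 averaged 201 ± 28.1 CPM in duodenal, 301 ± 32.1 CPM in jejunal, 301 ± 43.3 CPM in ileal and 98.3 ± 7.33 CPM in ceco-colonic nodes, with the jejunal and ileal means above the duodenal mean.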

How the data were processed

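PolyA RNA of whole lymph nodes was sequenced in 20 libraries, 4 from each of 5 positions. The tools kallisto, limma and edgeR and the builds GRCm39 and mm10 are named, per the submitters' processing notes; which build served which step, and every version, is not given in the sources used here. Expected counts (estimated per gene) of 56258 genes are in the deposited gene table, and the authors' transcript tables hold estimated counts and TPM for 149419 transcripts. In 12483 genes of 500 counts or more, gene sums of length-scaled TPM came within 0.01 (log2 scale) of 99.7% of the gene table's values, and plain sums within 0.01 of 28.9%, so the values tested are scaled by transcript length. Transcripts of paralogs or overlapping genes may share reads, and no source used here says whether strand was used.

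Gene estimates were rounded to whole numbers and tested with edgeR 4.0.16 in R 4.3.3 with TMM normalization. The filter was filterByExpr with the positions as groups (a minimum count of 10 and a minimum total of 15), and 29411 genes passed it. A quasi-likelihood model, with a mean for each position and all 20 libraries in it, gave the contrast of duodenal over ceco-colonic nodes, with Benjamini-Hochberg adjustment over all genes and calls under 0.05. The median biological coefficient of variation was 0.157, with 4.47 prior degrees of freedom. Depth was 148.2 to 304.6 M estimated counts per library. False calls in the simulated data were 4% of calls in the full fit and 2.74% without duodenal libraries 1 and 2. The SD of log2 differences between libraries was 0.3185 to 0.3509 for duodenal library 1 against the other 3, 0.1997 to 0.2406 among the other duodenal pairs and 0.1506 to 0.2513 among ceco-colonic pairs.

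The genes and the 50 lists (870 distinct symbols) were chosen with earlier results of these data known. The rule for named genes took 11 fixed genes, the 12 highest and 12 lowest fold changes among genes that were called, held, did not overlap and reached 5 CPM in the higher group, up to 4 called and held members of each list by adjusted p (or the 2 most abundant), and the 5 highest among called genes that did not hold. It named 184 genes, of which 132 are given for the biology they show; results for some genes are not reported here. Promoter windows were matched by symbol to a RefSeq table for 7 of 9 genes of the receptor's list. Alternatives were DESeq2 1.42.0, its type of size factors, limma-voom of limma 3.58.1, no filter, sums of transcripts, a fit of the 8 libraries, the replicate number as a block, the acinar list left out, the adipocyte level as a covariate, and single or paired libraries left out.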

Additional observations from a re-analysis of the deposited data

Results flagged for a closer look

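In 15 of 264 groups of 4 libraries, 1 library stood apart from the other 3 by Dixon's criterion at the 95% level, which chance reaches in about 1 in 20 groups. No cause was tested for any of them.

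Duodenal library 1 stood apart for 6 genes. Thbs2 was at 21.9 CPM there, against 27.7 to 28.4 CPM in the other duodenal libraries, and Bmp5 was at 0.437 CPM, against 0.884 to 0.97 CPM. It was high for Il6, at 2.61 CPM against 1.39 to 1.54 CPM, and for Il12b, at 40.5 CPM against 27.8 to 29 CPM. Il22ra2 was at 3.30 CPM there, against 1.48 to 1.78 CPM, and Prg2 was at 2.43 CPM, against 1.18 to 1.24 CPM.

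Duodenal library 3, with high smooth muscle and nerve transcripts, was high for Kdr (297.8 CPM, against 225.6 to 231.8 CPM in the other duodenal libraries), Reln (49.0 CPM, against 27.3 to 28.7 CPM) and Nqo1 (6.14 CPM, against 4.40 to 4.45 CPM). Duodenal library 4 was high for the dendritic cell genes Pdcd1lg2 (32.6 CPM, against 24.9 to 25.8 CPM) and Fscn1 (2101 CPM, against 1583 to 1659 CPM), and was also the duodenal library with the highest sum of migratory dendritic cell genes.

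Among ceco-colonic libraries, library 3 was high for Pdgfra (71.9 CPM, against 64.5 to 65.6 CPM in the other ceco-colonic libraries) and low for Ccl17 (25.9 CPM, against 37.1 to 38.2 CPM). Library 2 was high for Try4 (0.428 CPM, against 0.24 to 0.252 CPM), and library 1 was low for Mylk4 (0.395 CPM, against 0.463 to 0.477 CPM). All of these genes kept their direction when any single library was left out, and each kept its call in those fits.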

How the results depend on the processing

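The number of called genes was 3117 (1526 higher and 1591 lower in duodenal nodes) in a fit of only the 8 libraries compared, 3032 (1276 of them lower) without duodenal libraries 1 and 2, and 2491 (1293 higher and 1198 lower) without duodenal libraries 2 and 3, the last chosen after seeing the data. The count of genes that held was 4255 when only the place of libraries 3 and 4 beyond the ceco-colonic libraries was asked for, and 1775 when libraries 1 and 4 had to hold as well. Those fits had fewer libraries, and those rules had fewer or more conditions. Leaving out each of the 8 libraries in turn gave 3633 to 5090 calls, 1849 to 2556 higher and 1743 to 2534 lower, 1137 to 1458 at 2-fold or more, and a share of higher calls of 49.5% to 53%. The other alternatives kept these counts within 1.5 times.

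The labels do not say that a replicate number is an animal, so the numbers were not taken as pairs. Same-numbered duodenal and ceco-colonic libraries correlated at 0.241, -0.0502, 0.215 and 0.328, and not every library correlated best with its own number. These values do not decide whether the numbers are pairs. With the replicate number as a block, 5775 genes were called, against 4825 without it.

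Of 132 genes given, 123 were called and 108 of these were called under every alternative; none changed sign with a call. Limma-voom did not call Cpa1, Prss2, Ctrb1, Try4, Amy2a3 and Zg16, and sums of transcripts did not call Igf1 (adjusted p = 0.186). Of 2000 list counts under alternatives, 1764 stayed within 1.5 times; limma-voom called 1 acinar gene. At 1 CPM or more, the full comparison recovered 62.1% of simulated 1.5-fold and 94.1% of 2-fold changes. Over all levels it recovered 37% and 59%, so changes in genes at low levels were often missed there. No change below 1.5-fold was simulated, so how often smaller differences were missed is not known. With 100 changed genes of each size, far fewer genes changed in the simulation than were called in the data, and recovery may differ for that reason.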
